A study of Mus musculus with 15 samples.

Results

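The sortilin family and the neurotrophin receptors were followed through bulk RNA sequencing libraries of injured mouse cortex, with Sorcs2 as the gene that led to the choice. The set holds 10 of the 33223 genes in the deposited tables. Its 5 VPS10 receptors are Sorcs1, Sorcs2, Sorcs3, Sort1 and Sorl1, its 3 neurotrophin receptors are Ngfr, Ntrk2 and Ntrk3, and its 2 neurotrophins are Bdnf and Ntf3. Sorcs2 was picked because its level was lower in flow-through libraries of knockout mice, so that difference is given below as a description without a test, and the other 9 genes were added as relatives or partners. All mice carried floxed EphA4 alleles and received a moderate controlled cortical impact (CCI), a mechanical blow to the exposed brain, over the right parietal cortex. The injured-side cortex was taken 1 day later, dissociated and exposed to CD45 and CD31 microbeads, which bind leukocytes with microglia and endothelial cells. Wild-type mice (WT, EphA4f/f) were compared with EphA4f/f-VeCadCreERT2 mice (KO), which carry an inducible Cre under a VE-cadherin promoter that is active in endothelial cells. Neither the ages of the mice nor the induction schedule is stated in the labels, and no uninjured group was analysed here. The flow-through, labelled as all other cortical cells, gave 4 WT and 3 KO libraries, and the CD45 fraction gave 3 WT and 4 KO libraries. The labels name no animals, so p-values reflect only how far these samples scatter, and libraries of the 2 fractions may come from the same mice.

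VPS10 receptors are transmembrane sorting proteins that carry ligands between the Golgi, endosomes and the cell surface. Sortilin and the SorCS proteins bind proneurotrophins, the uncleaved precursors of neurotrophins, and act beside the p75 receptor in signals for cell death or growth cone retraction, whereas mature BDNF and NT-3 signal survival and synaptic growth through TrkB and TrkC. In the brain, sortilin also takes up progranulin, SorLA routes the amyloid precursor protein away from its cleavage, and a truncated TrkB without a kinase domain is abundant in astrocytes.

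Total counts ran from 19204814 to 27270907 in the flow-through libraries and from 11574414 to 31337948 in the CD45 libraries. Ptprc, which encodes CD45, lay at 0.660 to 1.22 CPM (the count scaled to the library total) in the flow-through and 805 to 1043 CPM in the CD45 libraries, and Epha4 at 36.03 to 43.0 CPM and 1.69 to 3.54 CPM. Neither fraction is an endothelial isolate, so these Epha4 values do not check the deletion. Summed over 8 markers each, astrocyte genes reached 7371 to 9037 CPM in flow-through and 145 to 222 CPM in CD45 libraries, and microglia genes 109 to 124 CPM and 3329 to 4187 CPM. Endothelial markers were higher in the CD45 libraries, at 658 to 799 CPM, than in the flow-through, at 234 to 361 CPM. Another library labelled flow-through WT had 906 CPM of Ptprc and only 2.11 CPM of Sorcs2. It went against its label and was left out of the values below, and the counts that include it are given where they differ.

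Promoters of 3 of these genes are shown because the comparison of fractions turns on them, Sorl1 as the member that was higher in CD45 libraries and Ntrk2 and Bdnf as a receptor and its ligand that were lower. The sequences are those of RefSeq for GRCm38.p6 and span 250 bases before to 50 bases after a transcript start, written in the direction of transcription. Of the 10 genes 7 were matched, with 15 promoters, 7 of them of Bdnf and 2 of Sorl1. The Bdnf window shown was picked as the 1 of 7 with the cyclic AMP response element core, and the Sorl1 window as the one at the gene's annotated start, while the other Sorl1 window held none of the motifs below. Capitals mark hits on either strand of 4 motifs that were searched, the GC box (GGGCGG), the cyclic AMP response element core (TGACGT), an ETS core of the PU.1 type (GAGGAA) and the E-box (CACGTG). None of these motifs overlaps another in the windows shown.
Sorl1, chr9:42124248-42124547, minus strand: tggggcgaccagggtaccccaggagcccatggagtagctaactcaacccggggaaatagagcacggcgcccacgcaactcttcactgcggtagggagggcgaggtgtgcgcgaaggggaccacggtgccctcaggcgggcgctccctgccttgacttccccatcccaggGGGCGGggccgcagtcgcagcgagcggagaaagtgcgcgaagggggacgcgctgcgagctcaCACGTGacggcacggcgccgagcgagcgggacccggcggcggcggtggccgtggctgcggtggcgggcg
Ntrk2, chr13:58806319-58806618, plus strand: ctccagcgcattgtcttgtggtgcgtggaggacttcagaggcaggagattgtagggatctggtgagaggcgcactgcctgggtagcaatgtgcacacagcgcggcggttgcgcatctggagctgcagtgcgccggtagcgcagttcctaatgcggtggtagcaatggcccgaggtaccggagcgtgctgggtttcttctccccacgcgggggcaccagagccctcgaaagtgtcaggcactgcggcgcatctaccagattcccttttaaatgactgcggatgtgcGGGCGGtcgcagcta
Bdnf, chr2:109692186-109692485, plus strand: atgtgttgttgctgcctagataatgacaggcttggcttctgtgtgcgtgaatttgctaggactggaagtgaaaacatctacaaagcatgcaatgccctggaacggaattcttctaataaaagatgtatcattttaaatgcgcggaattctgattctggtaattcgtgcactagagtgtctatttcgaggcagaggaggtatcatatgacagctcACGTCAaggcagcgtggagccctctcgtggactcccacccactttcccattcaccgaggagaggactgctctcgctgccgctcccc
The Sorl1 window held a GC box and an E-box, the Ntrk2 window a GC box, and the Bdnf window the reverse complement of the response element core. Over all 32851 promoters of this length, 35.7% held a GC box, 7.51% the response element core, 28.3% the ETS core and 7.15% the E-box. Among the 15 promoters of the set, 9 held a GC box, 1 the response element core, 4 the ETS core and 2 the E-box. A match describes letters in a window and shows no binding.

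The first comparison set the CD45 fraction against the flow-through. Of the 10 genes, 9 passed the filter on low counts. Sorl1 was higher and the other 8 were lower in CD45 libraries, each with an adjusted p under 0.05 by edgeR's quasi-likelihood test with Benjamini-Hochberg adjustment over 18098 genes. That test called 86.1% of all genes, 41.4% as higher and 44.7% as lower, so a call by itself is common here and the size of the difference carries more. The median log2 fold change was -3.70 over the 9 genes and -0.05 over all genes tested. Scaling to library totals in place of TMM shifted the median of all genes by -0.53 and took the share of higher calls from 48.1% to 32.1%, while upper-quartile scaling shifted it by -0.25 (40.2% higher) and removal of GC and length trends by 0.16 (51.7% higher). The 9 genes kept their direction and call under these scalings. How many of all genes separated the libraries of the fractions without overlap was not counted. Where such a separation is given below, it is therefore no result about the members. A lower level in a bulk library can mean fewer cells of a type or less RNA per cell, which cannot be told apart.

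Sorl1 encodes SorLA, the sorting receptor of the amyloid precursor protein, on the minus strand of chromosome 9 from 41964720 to 42124297 (GRCm38, as for all gene positions). In the flow-through its level was 123, 147, 151 and 149 CPM in WT and 162, 139 and 167 CPM in KO libraries. In the CD45 fraction it was 792, 750 and 1082 CPM in WT and 617, 708, 830 and 704 CPM in KO libraries. Every CD45 library lay above every flow-through library, and the fitted log2 fold change was 2.94 (SE 0.11, edgeR adjusted p = 2.25e-13). On plain CPM, without the TMM scaling that the fit used, the CD45 mean was 528% of the flow-through mean. Percentages of marker sums are on plain CPM too. Summed markers stood at 253% for endothelial cells, 3052% for T and B lymphocytes and 3118% for microglia. Neutrophil markers stood at 81028% and monocyte and macrophage markers at 1.91e+05%, on flow-through means of 6.68 and 3.13 CPM. Which of these cells carried Sorl1 was not tested.

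Sort1 encodes sortilin, a receptor of proneurotrophins and progranulin, at 108284082 to 108361511 on the plus strand of chromosome 3. Its flow-through level was 235, 237, 279 and 259 CPM in WT and 272, 239 and 261 CPM in KO libraries. In CD45 libraries it was 73.2, 74.8 and 78.5 CPM in WT and 78.2, 83.1, 70.6 and 89.3 CPM in KO. No CD45 library reached the lowest flow-through library, with a log2 fold change of -1.18 (SE 0.07, adjusted p = 6.40e-11), the smallest among the 8 genes that were lower. In every CD45 library Sort1 and Sorl1 lay at 70.6 CPM or more, and no other member passed 17.3 CPM there. Exons of Sorcs1, Sort1 and Sorl1 share 2.52%, 4.47% and 1.63% of their bases with antisense genes, which leaves their values slightly uncertain.

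The 3 SorCS receptors were low in CD45 libraries. Sorcs2, whose product binds proBDNF and pairs with p75 and TrkB, lies at 36017180 to 36398139 on the minus strand of chromosome 5. It had 1.65, 1.94 and 1.89 CPM in CD45 WT and 1.34, 1.65, 0.605 and 1.49 CPM in CD45 KO libraries, from 7 to 49 counts each. Against 60.8 to 125 CPM in the flow-through, all 7 CD45 libraries were far lower, with a log2 fold change of -5.31 (SE 0.11, adjusted p = 3.22e-16). Sorcs1, at 50143299 to 50678646 on the minus strand of chromosome 19, went from 20.6 to 29.5 CPM in the flow-through to 0.317 to 1.60 CPM in CD45 libraries, a log2 fold change of -4.73 (SE 0.20, adjusted p = 8.88e-13). Its neighbour on the plus strand of the same chromosome, Sorcs3 at 48206025 to 48805505, went from 23.2 to 31.2 CPM to 0.371 to 3.88 CPM, a log2 fold change of -3.66 (SE 0.27, adjusted p = 3.58e-09). Neither gene's fractions overlapped. On plain CPM, without the TMM scaling of the fit, the Sorcs2 mean in the CD45 fraction was 1.55% of that in the flow-through. Summed markers stood at 1.68% for ependymal cells, 2.03% for astrocytes, 2.19% for oligodendrocytes, 6.60% for fibroblasts and 6.77% for the pan-neuronal list. Sums were 7.95% for red cells, 8.14% for interneurons and 12.6% for excitatory neurons. Oligodendrocyte precursors stood at 36.3%, pericytes and smooth muscle at 36.9% and neuroblasts at 51.1%. In the precursor and neuroblast lists, 1 of 8 markers each was higher in CD45 libraries and 7 were lower. Of tested interneuron markers, 1 of 7 was called higher and 5 lower, and of fibroblast markers 1 of 7 higher and 6 lower. For pericytes and smooth muscle, 1 of 8 was called higher and 4 lower. What these cells contributed to the CD45 values was not tested.

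Among the receptors of mature neurotrophins, Ntrk2, which encodes TrkB, was the most abundant. It lies at 58806569 to 59133970 on the plus strand of chromosome 13, and its flow-through level was 720, 643, 685 and 678 CPM in WT and 744, 687 and 832 CPM in KO libraries. In the CD45 fraction it was 7.86, 10.8 and 9.60 CPM in WT and 8.999, 17.3, 8.55 and 10.96 CPM in KO libraries. The fractions did not overlap, and the log2 fold change of -5.58 (SE 0.15, adjusted p = 7.26e-15) was the largest of the set. Gene counts do not separate full-length TrkB from its truncated form. Ntrk3, which encodes TrkC, at 78175959 to 78738012 on the minus strand of chromosome 7, lay at 36.9 to 55.8 CPM in flow-through and 1.11 to 4.61 CPM in CD45 libraries, at a log2 fold change of -3.70 (SE 0.24, adjusted p = 9.96e-10). Ngfr, which encodes the p75 receptor, at 95568818 to 95587735 on the minus strand of chromosome 11, lay at 4.51 to 8.43 CPM and 0.154 to 1.21 CPM, with a log2 fold change of -3.12 (SE 0.30, adjusted p = 5.36e-08). Its CD45 values rest on 3 to 18 counts a library, and 3 counts corresponded to 0.0957 to 0.259 CPM there.

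Of the ligands, Bdnf was measured in every library and Ntf3 was near the limit of detection. Bdnf, at 109674700 to 109727007 on the plus strand of chromosome 2, lay at 32.8 to 58.6 CPM in flow-through and 0.288 to 2.78 CPM in CD45 libraries, without overlap and with a log2 fold change of -4.64 (SE 0.28, adjusted p = 5.18e-10). An antisense gene shares 14.4% of its exon bases, and the counting strand is not given in the sources used here, so its values are uncertain. Ntf3, which encodes NT-3, at 126101412 to 126166910 on the minus strand of chromosome 6, had 3 counts in flow-through WT replicate 2, 1 count in flow-through KO replicate 3 and none in the other 12 libraries. It passed no filter and was not tested. In the flow-through, 3 counts corresponded to 0.110 to 0.156 CPM.

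**Figure D1:**
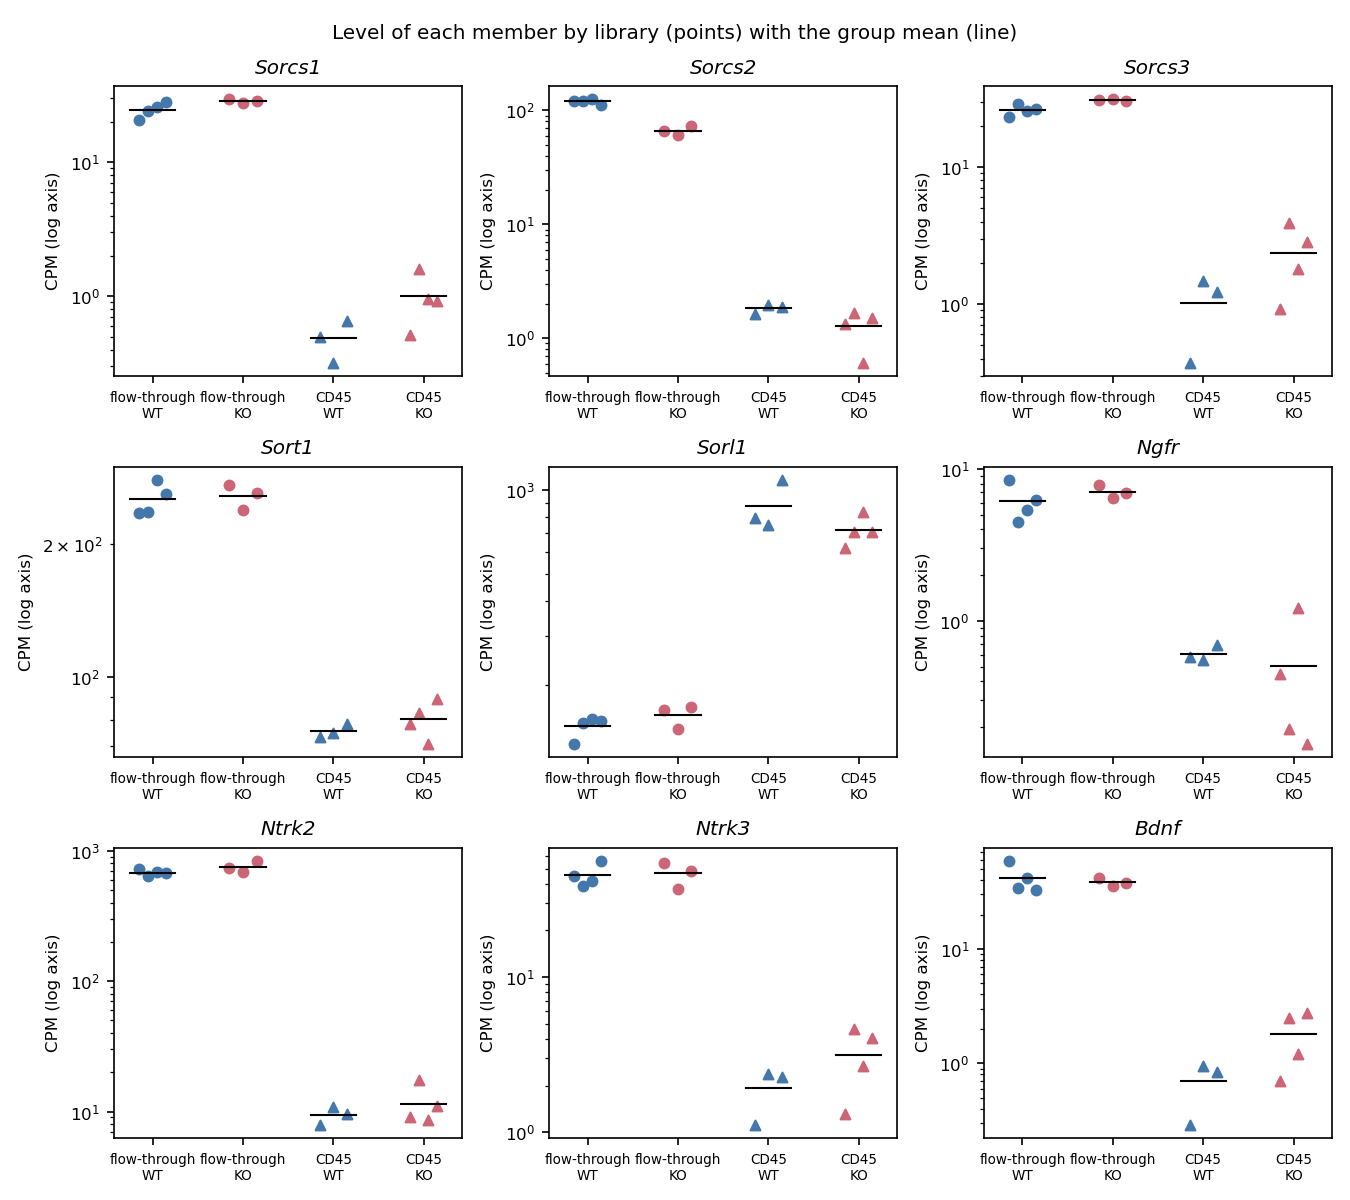
CPM on a log axis for the 9 genes with a test, each point 1 library, circles for flow-through and triangles for CD45, blue for WT and red for KO, and black lines for group means. Sorl1 is the panel in which CD45 libraries sit above the flow-through, and in the Sorcs2 panel the flow-through KO libraries (60.8 to 72.5 CPM) lie under the WT libraries (111 to 125 CPM).

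To compare levels between genes, CPM was divided by the kilobases of each gene's exons. In the flow-through the medians were 35.6 CPM per kilobase for Ntrk2, 34.3 for Sort1, 13.2 for Sorl1, 12.7 for Sorcs2, 6.06 for Bdnf, 4.03 for Sorcs3, 3.29 for Sorcs1, 1.86 for Ngfr and 1.49 for Ntrk3. Ranges of Ntrk2 and Sort1 overlapped, as did those of Sorl1 and Sorcs2, of Sorcs2 and Bdnf, of Sorcs3 and Sorcs1, of Sorcs1 and Ngfr and of Ngfr and Ntrk3, so these neighbours are not separated by their spread over libraries. Within a library, Sorcs2 exceeded Bdnf and Sorcs3 exceeded Sorcs1 in 7 of 7 cases, and Ntrk2 exceeded Sort1, Sorcs1 exceeded Ngfr and Ngfr exceeded Ntrk3 in 6 of 7. Sorcs2 lay above Sorl1 in 3 of 4 WT libraries and in 0 of 3 KO libraries. In the CD45 fraction, Sorl1 led at a median of 66.2 CPM per kilobase, followed by Sort1 at 10.3 and Ntrk2 at 0.498, and the other tested genes lay between 0.0776 and 0.206 with overlapping ranges. Dividing by the longest transcript in place of all exons, a choice made after the data were seen, put Sorcs2 (19.5) above Sorl1 (13.9) and Ntrk3 above Ngfr in the flow-through. It also separated Ntrk2 (73.5 to 95.1 CPM per kilobase) from Sort1 (34.4 to 40.8). Of the summed per-kilobase level of the 5 VPS10 receptors, Sort1 made up a median of 51.9% and Sorcs2 18.8% in the flow-through, whereas Sorl1 made up 86.5% in CD45 libraries. Ntrk2 made up 92.0% of the 3 neurotrophin receptors in the flow-through and 70.0% in the CD45 fraction.

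The second comparison, KO against WT in the flow-through, asks how the cells that passed the beads differed when EphA4 was targeted in endothelium. Sorcs2 measured 121, 122, 125 and 111 CPM in the 4 WT libraries (mean 120 ± 6.03 SD) and 66.2, 60.8 and 72.5 CPM in the 3 KO libraries (mean 66.5 ± 5.87 SD). The KO libraries lay below the WT libraries without overlap, which 6.78% of all genes did in that direction (12% in either), with a log2 fold change of -0.83 (SE 0.09), a level 0.563 times that of WT. The gene was chosen from this contrast, so no test is given. The share of the summed VPS10 receptor level that Sorcs2 made up had a median of 20.7% in WT and 11.8% in KO libraries.

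Marker sums of other cell types were set beside this gap. The 8 excitatory neuron markers summed to 165 to 275 CPM in WT and 441 to 693 CPM in KO libraries, with 8 of 8 positive and 3 called higher (1 with GC and length trends removed). Pan-neuronal markers summed to 704 to 846 CPM in WT and 745 to 1014 CPM in KO libraries. Neuroblast markers summed to 1023 to 1263 CPM in WT and 688 to 927 CPM in KO libraries, with 8 of 8 negative and none called by edgeR (DESeq2 called 2). Interneuron markers summed to 167 to 201 and 154 to 186 CPM, and astrocyte markers to 7371 to 9037 and 7645 to 8837 CPM, with overlapping ranges. Log2 fold changes were positive for 4 of 6 tested interneuron markers, 6 of 8 pan-neuronal and 6 of 8 astrocyte markers. The medians were 0.19, 0.65 and 0.05 in that order. Of these lists, edgeR called 1 interneuron marker lower, 1 pan-neuronal marker higher and no astrocyte marker. Over all genes it called 1.42% higher and 0.151% lower. With GC and length trends removed, no interneuron or pan-neuronal marker was called. DESeq2 called 4 excitatory, 4 pan-neuronal and 1 astrocyte marker higher, and 2 interneuron markers higher and 1 lower. The part of these cell types in the lower Sorcs2 was not tested. Among the KO libraries, KO replicate 3 had the highest Sorcs2, the highest astrocyte sum and the lowest sums of the other lists named above.

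**Figure D2:**
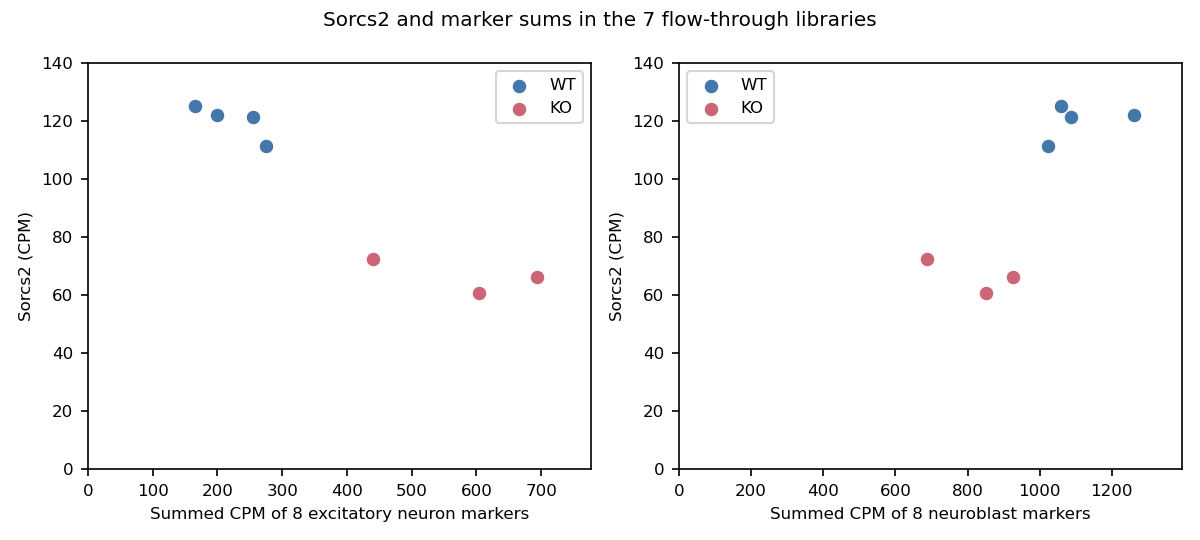
Sorcs2 in CPM against the summed CPM of 8 excitatory neuron markers (left) and 8 neuroblast markers (right) in the 7 flow-through libraries, blue for WT and red for KO, each point 1 library. The KO libraries lie at 60.8 to 72.5 CPM of Sorcs2 and the WT libraries at 111 to 125 CPM, with excitatory sums above and neuroblast sums below those of WT.

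None of the other 8 tested genes passed the test, which called 1.57% of 16546 genes (260, with 1.42% or 235 higher and 0.151% or 25 lower); 2 of the 8 had an unadjusted p under 0.05, as did 11% of all genes (1814), and DESeq2 called none of the 8. The count of 260 fell to 144 without WT replicate 2, 159 without WT replicate 3, 134 without KO replicate 1 and 163 without KO replicate 2. With the library that went against its label entered as WT, edgeR called no gene. Of the sorting receptors, Sorcs3 measured 23.2, 28.8, 25.6 and 26.7 CPM in WT and 30.9, 31.2 and 30.2 CPM in KO libraries. All KO libraries were above all WT libraries, a pattern shown upward by 5.19% of all genes, with a log2 fold change of 0.27 (SE 0.09, adjusted p = 0.243). Sorcs1, at 20.6 to 28.2 CPM in WT and 27.8 to 29.5 CPM in KO, had a log2 fold change of 0.24 (SE 0.10, adjusted p = 0.401). Both lay opposite in sign to Sorcs2, and neither is a call. Sort1 and Sorl1 had log2 fold changes of 0.05 (SE 0.10, adjusted p = 0.891) and 0.16 (SE 0.09, adjusted p = 0.587), with overlapping groups.

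The neurotrophin receptors and Bdnf did not pass in the flow-through. Ntrk2 had a log2 fold change of 0.17 (SE 0.10, adjusted p = 0.583) and Ntrk3 0.08 (SE 0.14, adjusted p = 0.892), with groups that overlapped for both. Ngfr measured 8.43, 4.51, 5.33 and 6.22 CPM in WT and 7.83, 6.40 and 6.89 CPM in KO, a log2 fold change of 0.23 (SE 0.20, adjusted p = 0.749). Bdnf stood at 58.6, 33.8, 41.6 and 32.8 CPM in WT and 41.4, 35.9 and 37.7 CPM in KO libraries. Its log2 fold change was -0.10 (SE 0.21, adjusted p = 0.904). The WT library at 58.6 CPM set the sign, which turned to 0.12 without it.

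In the CD45 fraction, the third comparison, edgeR called 0 of 15660 genes (0%) and none of the 9; at an unadjusted p under 0.05 there were 4.43% of all genes and 1 of the 9, Bdnf. DESeq2 called 10 genes and none of the 9. Leaving out CD45 KO replicate 1 gave 1 call, and no other single library gave any. No member separated the groups, a pattern shown by 5.09% of all genes (2.92% with KO above, 2.16% with KO below). Bdnf stood at 0.288, 0.951 and 0.848 CPM in WT and 0.702, 2.47, 1.21 and 2.78 CPM in KO, with a log2 fold change of 1.33 (SE 0.57, adjusted p = 0.974). Sorcs3 had a log2 fold change of 1.17 (SE 0.56), Sorcs1 of 0.97 (SE 0.48) and Ntrk3 of 0.69 (SE 0.45), each with the same adjusted p. For these 4 genes, 3 of 4 KO libraries lay above all WT libraries. How many of all genes did so was not counted, so the pattern is no result about these genes. The pan-neuronal marker sum was 25.1, 47.1 and 35.3 CPM in WT and 33.6, 139.7, 53.7 and 56.5 CPM in KO libraries, positive for 8 of 8 markers with none called, and its part in these values was not tested.

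The other 5 tested members did not pass either. Sorcs2 had a log2 fold change of -0.52 (SE 0.34, adjusted p = 0.974), on 40, 49 and 49 counts in WT and 42, 34, 7 and 29 counts in KO libraries. Its 7 counts belong to the shallowest library. Without that library, CD45 KO replicate 3, the log2 fold change was -0.33. Sorl1, at 792, 750 and 1082 CPM in WT, had a log2 fold change of -0.32 (SE 0.16, adjusted p = 0.974), and Ngfr of -0.43 (SE 0.64, adjusted p = 0.983) on 3 to 18 counts. The Sorl1 value was -0.13 without CD45 WT replicate 3, the library at 1082 CPM. For Sorcs2, Sorl1 and Ngfr, 3 of 4 KO libraries lay below all WT libraries, a pattern whose share over all genes was likewise not counted. Sort1 and Ntrk2 had log2 fold changes of 0.06 (SE 0.09, adjusted p = 0.983) and 0.26 (SE 0.24, adjusted p = 0.975). Whether a genotype difference differed between the fractions was not tested.

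**Figure D3:**
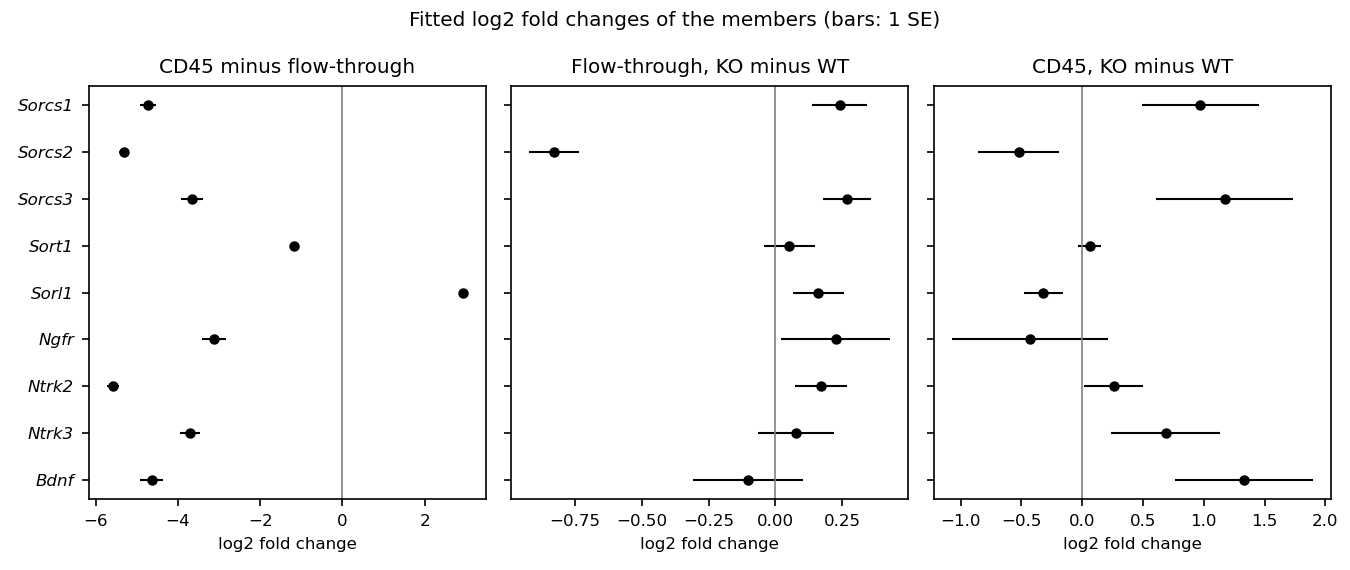
Fitted log2 fold changes with 1 SE for the 9 tested genes, CD45 minus flow-through (left), flow-through KO minus WT (middle) and CD45 KO minus WT (right), each panel on its own axis. Sorl1 (2.94) is the one member on the positive side of the left panel, Sorcs2 (-0.83) stands alone on the far left of the middle panel, and the bars in the right panel are wide for members with few counts.

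**Figure D4:**
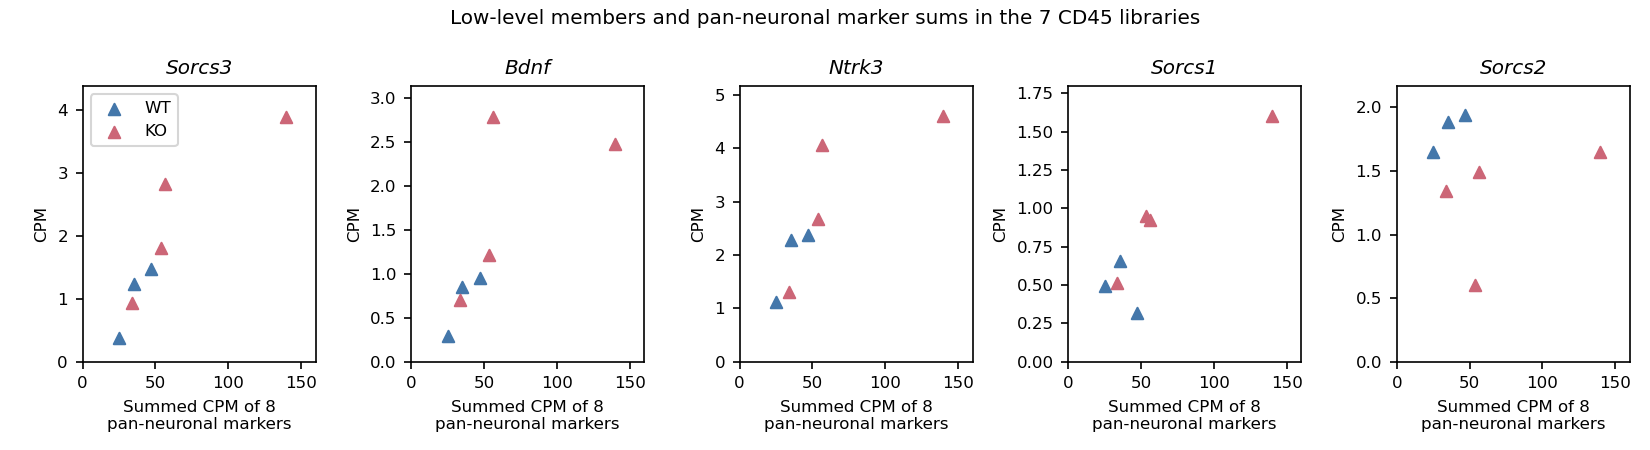
CPM of Sorcs3, Bdnf, Ntrk3, Sorcs1 and Sorcs2 against the summed CPM of 8 pan-neuronal markers in the 7 CD45 libraries, blue for WT and red for KO. The library at 139.7 CPM of markers, CD45 KO replicate 2, is the highest for Sorcs3 (3.88 CPM), Ntrk3 (4.61 CPM) and Sorcs1 (1.60 CPM), while Sorcs2 (1.65 CPM) there is not.

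Genes that work with these receptors were counted from 4 lists. Of 9 tested ligands and receptors outside the set, 1 was higher in flow-through KO libraries, where 1.42% of all genes were called higher. This was Lingo1, a partner of p75 in the receptor complex of myelin inhibitors, at 24.2, 19.5, 19.5 and 21.7 CPM in WT and 39.6, 42.6 and 37.8 CPM in KO, with a log2 fold change of 0.94 (SE 0.10, adjusted p = 0.000551). All KO libraries lay above all WT libraries, a pattern shown upward by 5.19% of all genes. The call held in 13 of 15 alternatives, missing in the joint fit of 4 groups and with the left-out library entered as labelled. Of 13 processing enzymes and sortilin ligands, 1 was higher, beside the same 1.42% of all genes. This was Pcsk2, a prohormone convertase of neurons, at 19.1, 16.9, 14.2 and 16.2 CPM in WT and 32.9, 23.5 and 23.7 CPM in KO, a log2 fold change of 0.71 (SE 0.14, adjusted p = 0.0208). Its call was lost without WT replicate 2, 3 or 4 or KO replicate 1, with adjusted p of 0.0787, 0.0778, 0.0594 and 0.108, and it held in 9 of 15 alternatives. Excitatory neuron markers, of which 3 of 8 were called higher as given above, were raised in the same libraries, and their part was not tested. No adaptor or effector (19 tested) and no trafficking gene (16 tested) passed, with median log2 fold changes of 0.02 and -0.04 beside -0.01 over all genes; DESeq2 called none in either list. An unadjusted p under 0.05 was reached by 3 of 9 ligands and receptors, 3 of 19 adaptors, 4 of 13 processing genes and 0 of 16 trafficking genes, beside 11% of all genes. In the CD45 fraction none of the 9, 18, 12 and 16 tested genes of the 4 lists passed with edgeR or DESeq2. There, 1, 0, 1 and 0 of them had an unadjusted edgeR p under 0.05, as did 4.43% of all genes.

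The same lists were counted between fractions, where the test called 86.1% of all genes, 41.4% as higher and 44.7% as lower. In CD45 libraries, 8 of 9 ligands and receptors were lower and none was higher, with a median log2 fold change of -2.38. The largest changes were those of Lrig1 (-5.20), a restraint on receptor tyrosine kinases, Slitrk5 (-4.38), a co-receptor of TrkB, and Tnfrsf19 (-4.29), a relative of p75. Removing GC and length trends made the count 1 higher and 7 lower. Trafficking genes gave 14 higher and 2 lower (median 1.22), among them Snx2 (2.79) and Vps26a (1.89) of the retromer pathway and Adam17 (2.63), a sheddase of sortilin family receptors. Bace1 (-4.28), the beta-secretase, was lower and uncertain because 32.5% of its exon bases overlap other genes. Under library totals the trafficking count was 10 higher and 3 lower, so it depends on the scaling.

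Adaptors split into 9 higher and 8 lower of 19 tested, and processing enzymes with sortilin ligands into 6 higher and 5 lower of 13. The shares called lay near that over all genes, 86.1%, so the counts set neither list apart. The adaptors named by size were Shc3 (-6.02) and Shc2 (-3.59), which link Trk receptors to Ras, Sh2b2 (4.52), a kinase adaptor, and Arhgef1 (2.51). Exons of Lrig1, Shc2, Pcsk2, Pcsk6, Grn and Adam17 share 1.16% to 4.54% of their bases with other genes. Among processing genes, Grn, which encodes progranulin, the ligand of sortilin, rose from 56.3 to 67.1 CPM in the flow-through to 952 to 1191 CPM in CD45 libraries, a log2 fold change of 4.64. Lipoprotein lipase, another sortilin ligand encoded by Lpl, was higher by 6.49, whereas the convertases Pcsk6 (-5.76) and Pcsk5 (-3.97) were lower. Under library totals the counts became 6 higher and 10 lower for adaptors and 6 higher and 7 lower for processing genes, and with GC and length trends removed 12 higher and 7 lower and 8 higher and 5 lower.

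Across the 7 flow-through libraries, the profiles most like that of Sorcs2, by Pearson correlation of log2(CPM + 1) among 10866 genes, were Cep41 (r = 0.992), Zfp867 (0.977), Chd4 (0.976), Tgm1 (0.969) and Gosr1 (0.967). Their KO minus WT log2 fold changes were -0.26, -0.30, -0.14, -0.57 and -0.08, all smaller than that of Sorcs2. The 7 points share the genotype gap and their depths, so the values describe the libraries and carry no test.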

How the data were processed

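Per the labels' protocols, a stranded TruSeq kit with 14 PCR cycles was used. Trim Galore, FastQC, STAR 2.7.9a and the GRCm38 build are named in the submitters' processing notes. How reads were assigned to genes, and whether strand was used, is not given in the sources used here. The deposited values used are raw counts per gene, 1 table per fraction; the authors' tables normalized with DESeq2 were not used. Of 33223 genes, 33130 matched GENCODE M21, which gave names, positions and exon lengths. CPM is the count divided by the library total. Tests used edgeR 4.0.16 in R 4.3.3, the robust quasi-likelihood test, TMM scaling and filterByExpr (at least 10 counts, 15 in total), within a fraction for genotype and over 14 libraries for fractions, with Benjamini-Hochberg adjustment and a threshold of 0.05. Alternatives were DESeq2 1.42.0, other scalings, no filter, GC and length trends removed, each library left out, the library below entered as labelled, and joint or single-genotype fits; scaling to library totals and the longest-transcript length were added after the data were seen. Scripts were tested on simulated data. Replicates within a group were compared in 18 pairs of the 14 libraries, and with a chi-square per degree of freedom of 10.2 to 55.2 no such pair agreed within sampling noise. The members and gene lists were chosen with earlier results of these data known. All 10 members are named, with pathway genes called in a genotype comparison, up to 4 called genes a list with the largest fraction difference, and the 5 profiles most like Sorcs2; 1 pathway gene that this rule names is not reported here. Replicate numbers follow accession order and pair nothing. The library left out is labelled flow-through WT but stands in the CD45 table. Floors of 3 counts cover counting error only. Each SE was derived from the quasi-likelihood test, as the absolute log2 fold change divided by the square root of its F statistic. It is approximate and also carries the scatter between libraries.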

Additional observations from a re-analysis of the deposited data

Results flagged for a closer look

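Of 19 groups of values searched for a library apart, chance flags about 1 in 20. Sorl1 in flow-through WT replicate 1 stood at 122.78 CPM, apart from the other 3 WT libraries at 147 to 151 CPM. Ntf3 in flow-through WT replicate 2 stood at 0.135 CPM, from 3 counts, with 0 in the other 3 WT libraries. Sorl1 in the library left out stood at 769.64 CPM, above every flow-through WT library and within the range of the CD45 libraries.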

How the results depend on the processing

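No paired analysis was possible because the labels carry no replicate numbers shared between groups. The 9 tested genes kept direction and call between fractions in all 207 combinations of gene and alternative, and 6 of 135 flow-through and 2 of 126 CD45 genotype values changed sign. Flow-through genes called, 260 as reported, were 436 with DESeq2, 629 without a filter, 30 in the joint fit, 0 with the library left out entered as labelled, and 134 to 287 when each library was left out in turn. In CD45 libraries, 0 as reported, they were 10 with DESeq2 and 0 to 1 when each library was left out in turn. In the flow-through, Bdnf turned to 0.0035 with GC and length trends removed and 0.18 with the library left out entered as labelled, where Sorl1 turned to -1.15. With each library left out in turn, flow-through Bdnf ran from -0.21 to 0.12 (positive without WT replicate 1) and Ntrk3 from -0.055 to 0.21 (negative without KO replicate 1, and -0.00067 without WT replicate 2), CD45 Ntrk2 from -0.0021 (without KO replicate 2) to 0.36, and CD45 Sort1 from -0.0016 (without KO replicate 4) to 0.11. None of these sign changes passed the threshold before or after, and the cause was not tested. The flow-through Sorcs2 value ran from -0.96 to -0.52 over the alternatives, the last with the library left out entered as labelled (SE 0.88). Low counts limit Ngfr, Sorcs1, Sorcs2, Sorcs3, Ntrk3 and Bdnf in CD45 libraries.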
